A study of Saccharomyces cerevisiae and Neurospora crassa and Schizosaccharomyces pombe with 13 samples.

Results

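The genes nearest the ends of the Neurospora crassa chromosomes are described here from the gene annotation deposited with a study of nucleosome positions. A gene was counted as near an end where the midpoint of its span lay within 200 kb of the first or of the last annotated base of its sequence. The annotation has 7 sequences, numbered 1 to 7, and thus 14 ends, and the rule took 754 of 9730 genes (7.75%). The end regions cover 6.95% of the annotated length. Of the 754 genes, 362 lay at the 7 ends with the first annotated base and 392 at the 7 ends with the last.

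The study made 13 MNase-seq libraries, in which micrococcal nuclease cuts the DNA between nucleosomes and the protected pieces are sequenced. It used S. cerevisiae (10 libraries), Schizosaccharomyces pombe (1) and wild-type N. crassa (2), a filamentous ascomycete. The N. crassa cells were conidia, the asexual spores, cultured for 3.5 h until more than 70% had germinated, fixed for 10 min in 1% formaldehyde and processed by the rapid protocol. Footprints and read depth of the libraries were not analysed here; the annotation supplies the gene positions for lining up the N. crassa footprints.

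As background, chromosome ends carry telomeres, and the stretches beside them, the subtelomeres, are often packed as heterochromatin in fungi. In N. crassa, repeats mutated by repeat-induced point mutation carry DNA methylation, and broad domains of histone H3 marked by the Polycomb machinery are common towards chromosome ends. Genes for secondary metabolites often lie near chromosome ends in filamentous fungi such as Aspergillus. Neither chromatin marks nor gene functions are part of this annotation, which pairs its NCU identifiers with no symbols.

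Distances were counted from the outermost annotated base, because the annotation gives no sequence lengths. The first annotated base was 950 on sequence 7 and 18907 on sequence 5, the lowest and the highest of the 7. DNA outside the outermost genes is therefore not part of the end regions, and whether each sequence reaches its telomere was not examined. Each end region also has a gene at its outer border by construction. The innermost genes taken by the rule had midpoints 182846 to 199680 bp from the 14 ends, and the first genes left out 200136 to 213038 bp. The members make up 4.05% of the genes of sequence 1, the longest, and 11.1% of those of sequence 6, the shortest.

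An annotation has no biological replicates, so the sequence was the unit. Each quantity was computed for both ends of a sequence together and for the rest of the same sequence. The difference, ends minus rest, was compared with 0 by an exact permutation test, two-sided, that flips the signs of the 7 differences. Its smallest possible p is 0.0156. The 12 tests were adjusted together by the Benjamini-Hochberg method. With that adjustment 0 of the 12 differences passed 0.05, and 4 had an unadjusted p under 0.05. No difference could pass by itself, however consistent: the 3 at the smallest p reached an adjusted p of 0.0625. The count of 0 is therefore no measure of how large each difference was. SDs describe the spread over sequences and not an error of measurement. Ends hold 95 to 119 genes a sequence and the rest 878 to 2252, so values of the ends vary more from sequence to sequence.

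The outermost genes open the description. At the ends with the first annotated base they were NCU10129 on sequence 1 (1151 to 2878, minus strand), NCU09634 on sequence 2 (8927 to 11029, minus strand) and NCU09526 on sequence 3 (9257 to 12729, plus strand). On sequences 4 to 7 they were NCU10285 (1667 to 3325, plus), NCU08882 (18907 to 20499, plus), NCU07143 (1305 to 3239, minus) and NCU09306 (950 to 2274, minus). At the ends with the last annotated base they were NCU10031 on sequence 1 (9770841 to 9772169, minus), NCU09495 on sequence 2 (4468613 to 4470618, plus) and NCU16718 on sequence 3 (5272185 to 5273718, plus). On sequences 4 to 7 they were NCU10037 (5949691 to 5951318, plus), NCU17054 (6435237 to 6435860, plus), NCU04991 (4159484 to 4162424, minus) and NCU05903 (4234257 to 4235509, plus).

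These 14 genes differed widely in structure. Coding length ran from 264 bp in NCU16718 to 2523 bp in NCU04991, with a median of 972 bp. NCU09526, NCU10285 and NCU04991 had 5 exons each, and 3 of the 14 genes, NCU09634, NCU10037 and NCU17054, had a single exon. A 5′ untranslated region (UTR), the transcribed stretch before the coding region, was annotated for 11 of the 14, and a 3′ UTR, the stretch after it, also for 11. NCU09634 and NCU17054 had neither. All 14 had 1 transcript. Transcription ran towards the end in 9 of them and away from it in 5. Of all 9730 genes, 78.7% had a 5′ UTR, 80.1% a 3′ UTR and 18.4% a single exon. Several transcripts were annotated for 9.23% of all genes, and 49.1% were transcribed towards the nearer end.

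**Figure D1:**
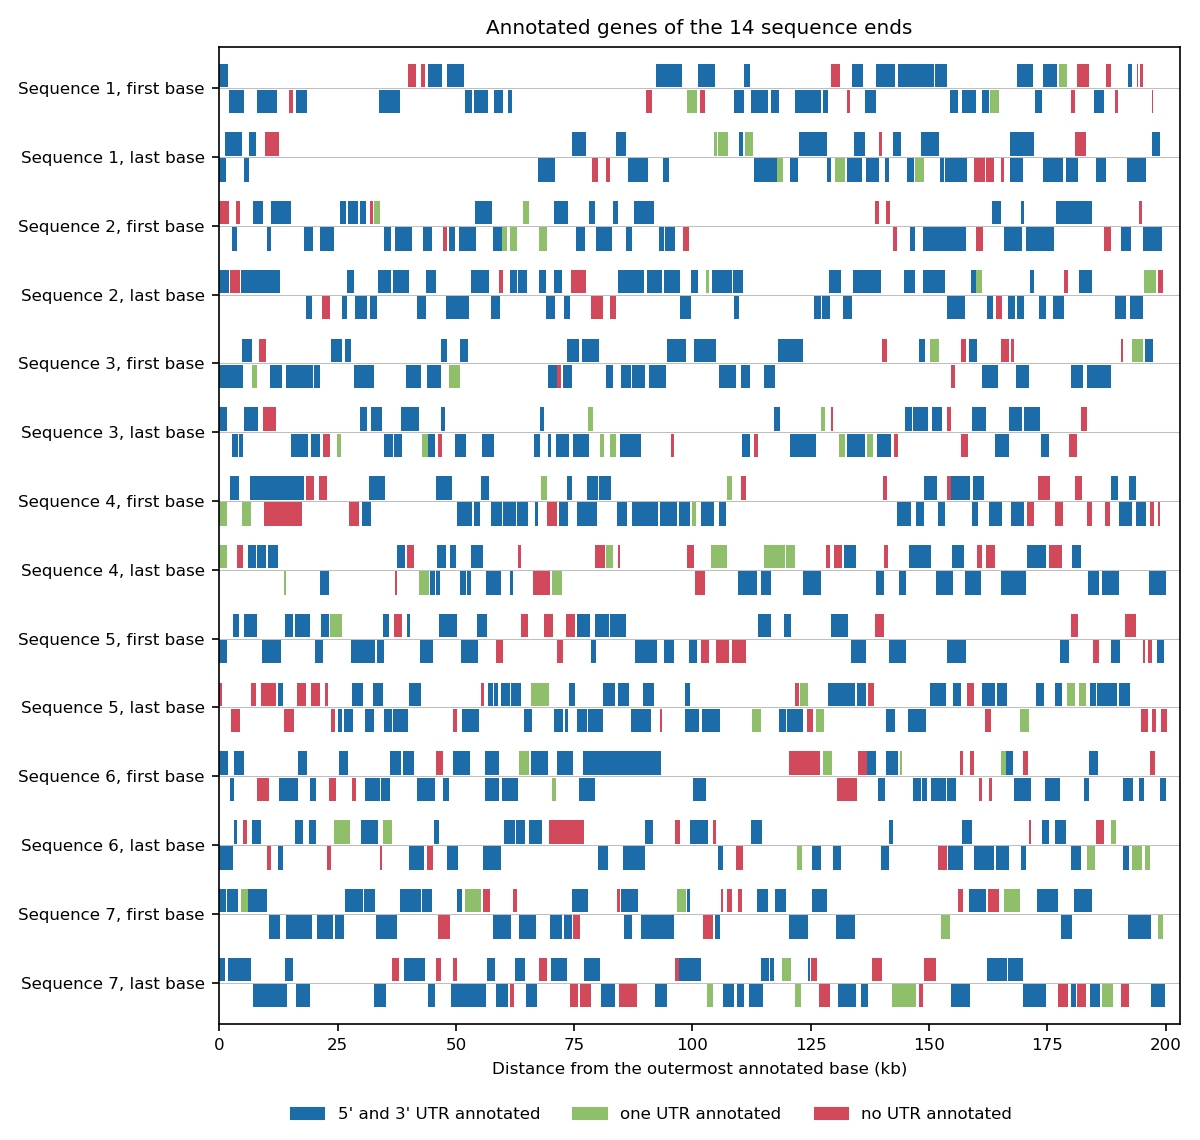
Map of the 754 member genes of the 14 end regions, by distance from the outermost annotated base in kb; boxes above each line are genes transcribed towards the end, boxes below it away from the end, and colour shows which UTRs are annotated. Genes with neither UTR (180) are scattered over all 14 ends, and the widest gap, 54681 bp, lies at the end with the last base of sequence 1.

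Genes lay somewhat more densely near the ends than elsewhere on 6 of 7 sequences. Both ends of a sequence together held 23.75, 27.25, 25, 27.75, 29.75, 27.5 and 27.5 genes per 100 kb on sequences 1 to 7. The rest of the same sequences held 24.0, 22.6, 23.7, 24.8, 24.3, 23.3 and 24.4. Sequence 1 was the exception, with a difference of -0.28 genes per 100 kb; the 6 others lay 1.26 to 5.47 above their own rest, and also above the rest of all 7 sequences. The ends averaged 26.9 ± 1.97 and the rest 23.9 ± 0.724 genes per 100 kb (SD, n = 7 sequences). The difference of 3.04 ± 1.99 (SD) had p = 0.0313 in the exact permutation test and an adjusted p of 0.0938.

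Single ends ranged more widely than these averages. The end with the last base of sequence 5 was the densest, with 71 genes or 35.5 per 100 kb, while the opposite end of sequence 5 had 48 genes or 24.0. The end with the last base of sequence 1 was the sparsest, with 45 genes or 22.5 per 100 kb. In all, 11 of 14 ends were denser than the rest of their own sequence. Part of the rest consists of very long gene-free stretches. It has 23 gaps over 50 kb among 8969 pairs of neighbouring genes, and the ends have 1 among 740 pairs. With all such gaps taken out of the lengths, the ends held 27.5 ± 1.38 and the rest 25.9 ± 0.571 genes per 100 kb, so the difference was 1.57 ± 1.42 (6 of 7 sequences above 0, exact permutation p = 0.0313).

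The share of DNA within gene spans was nearly the same despite the difference in density. Gene spans covered 57.7 ± 4.92% of the bases in the ends and 56.2 ± 1.93% in the rest (SD, n = 7 sequences). Single ends ran from 48.8% at the last base of sequence 1 to 67.4% at the last base of sequence 7, and 7 of 14 exceeded the rest of their sequence. Median spans were shorter near the ends, 1923 ± 150 bp, than in the rest, 2138 ± 68.6 bp, and lay below the rest on 6 of 7 sequences.

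The gap between neighbouring genes was taken between consecutive spans. Its median was 688, 613, 823, 656, 799, 831.5 and 620 bp in the ends of sequences 1 to 7, against 594, 678, 639.5, 626, 568.5, 738 and 645 bp in their rest. Median gaps were longer in the ends of 5 sequences and shorter in those of sequences 2 and 7. The mean difference of 77.4 ± 107 bp (SD) was within the spread over sequences (exact permutation p = 0.0938, adjusted p = 0.188). It also depends on what is called a gene: measured between coding spans, the gap was 1270 ± 128 bp in the ends and 1312 ± 48.2 bp in the rest, a difference of -42.5 ± 114 bp (exact permutation p = 0.375). Among single ends the median ran from 524 bp at the last base of sequence 2 to 1318.5 bp at the last base of sequence 6.

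Gaps over 10 kb had close shares in the ends and elsewhere. There were 16 among the 740 member pairs (2.16%) and 196 among the 8969 pairs of the rest (2.19%). Averaged over sequences the shares were 2.21 ± 1.13% and 2.17 ± 0.305%, a difference of 0.0349 ± 1.31 percentage points (SD, exact permutation p = 0.922, adjusted p = 0.922). The 16 gaps lay at 12 of 14 ends, and the last-base ends of sequences 5 and 6 had none. The longest, 54681 bp, ran from 9704916 to 9759596 on sequence 1, between NCU08642 (minus strand, 2 exons, coding length 2928 bp) and NCU10027 (plus strand, 3 exons, coding length 2754 bp, neither UTR). It was also the longest gap of the end with fewest genes, and its nearer edge lay 12573 bp from the last annotated base. The next longest were 39492 bp at the first base of sequence 2, 28916 bp at the first base of sequence 4 and 28373 bp at the first base of sequence 1. Of the 16, 11 separated tandem neighbours, which lie on the same strand, 3 divergent and 2 convergent ones. Tandem neighbours made up 48.0% of all member pairs and 44.9% of all pairs of the annotation. The orientation of the 196 gaps in the rest is not given here, so the 11 are a description only.

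Strand and orientation showed no difference beyond the spread over sequences. The plus strand held 385 members and the minus strand 369, or 50.9 ± 5.79% plus in the ends and 50.2 ± 0.796% in the rest (exact permutation p = 0.75, adjusted p = 0.835). Transcription towards the nearer end was found for 355 of 754 members, 46.9 ± 4.02% a sequence, against 49.2 ± 1.19% in the rest (exact permutation p = 0.313, adjusted p = 0.417). Single ends ran from 37.0% at the last base of sequence 3 to 56.6% at the first base of sequence 7. Tandem neighbours made up 48.0 ± 4.27% of pairs in the ends and 44.9 ± 2.13% in the rest (exact permutation p = 0.125, adjusted p = 0.188). The share was 54.1% on sequence 3 and 53.7% on sequence 7, against 43.9% and 48.9% in their rest. Of the 7 sequences, 4 lay above their rest, and sequences 2, 4 and 6 lay slightly below it, at -0.147, -0.232 and -0.126 percentage points. The longest run of genes on the same strand within an end had 8 genes, at the last bases of sequences 5 and 7. In the rest, longest runs had from 7 genes on sequence 3 to 21 on sequence 1. The rest holds many more genes, so these maxima cannot be compared directly.

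Coding length differed by less than the spread over sequences. The median was 1258.5 bp over the 754 members and 1260 bp over the 8976 other genes. By sequence, the ends had medians of 1260, 1143, 1218, 1344, 1137, 1161 and 1452 bp on sequences 1 to 7. Their rest lay between 1227 and 1279.5 bp. The mean difference was -13.7 ± 122 bp (SD, exact permutation p = 0.766, adjusted p = 0.835), and sequences 4 and 7 lay above their rest. Coding lengths under 600 bp were found in 18.4% of members and 18.3% of other genes. The longest coding region near an end was that of NCU07119 (sequence 6, minus strand, 78240 to 94699), with 15363 bp in 5 exons. It spans 16460 bp, and its 5′ UTR has 608 bp and its 3′ UTR 140 bp.

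Genes near the ends had fewer exons than the rest on all 7 sequences. The mean number of exons, counted in the longest transcript of each gene, was 2.54, 2.59, 2.28, 2.36, 2.58, 2.19 and 2.58 in the ends of sequences 1 to 7. In their rest it was 2.86, 2.70, 2.77, 2.79, 2.76, 2.75 and 2.63. Even the highest of the ends lay below the lowest of the rest, so the 2 sets of values did not overlap. The means over sequences were 2.45 ± 0.166 and 2.75 ± 0.0750 exons, a difference of -0.31 ± 0.199 (SD). It had the smallest p that 7 sequences allow, 0.0156 in the exact permutation test, and an adjusted p of 0.0625, which misses 0.05. Against the genes at 200 to 600 kb from the ends alone, in place of the whole rest, the difference was -0.14 ± 0.315 exons, with 2 of 7 sequences above 0 (exact permutation p = 0.375, adjusted p = 0.609).

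The difference in exons was about as large without the exons of UTRs. Counting exons with coding bases alone, it was -0.30 ± 0.177 (0 of 7 sequences above 0, exact permutation p = 0.0156, adjusted p = 0.0625). Among the genes with both UTRs annotated, 501 in the ends and 6861 in the rest, means were 2.45 ± 0.145 and 2.78 ± 0.0802 exons. The difference was -0.33 ± 0.169 (exact permutation p = 0.0156, adjusted p = 0.0625). This restriction to genes with both UTRs was added after the data were seen. Introns, those within UTRs included, numbered 0.985 per kb of coding length in the members and 1.16 in the other genes. Their median length was 75 bp in both. Genes with 6 or more exons, those of UTRs included, made up 3.32% of members (25 genes) and 5.50% of other genes (494). No member had more exons than NCU10809, with 11 (sequence 2, minus strand, 4312939 to 4316864).

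Single ends did not all share the low number of exons. In 11 of 14 the mean lay below the rest of the sequence. The lowest was 2.18 exons, at the first base of sequence 6, and the highest 3.17, at the first base of sequence 5, against 2.76 in the rest of that sequence. Both ends of sequence 6 were low. Single-exon genes made up 22.7 ± 6.09% of genes in the ends and 18.3 ± 1.33% in the rest, a difference of 4.38 ± 6.23 percentage points with 5 of 7 sequences above 0 (exact permutation p = 0.125, adjusted p = 0.188). Against 200 to 600 kb alone that difference was 0.522 ± 9.06 percentage points (exact permutation p = 0.906). Their share ran from 10.3% at the last base of sequence 2 to 36% at the first base of sequence 1.

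**Figure D2:**
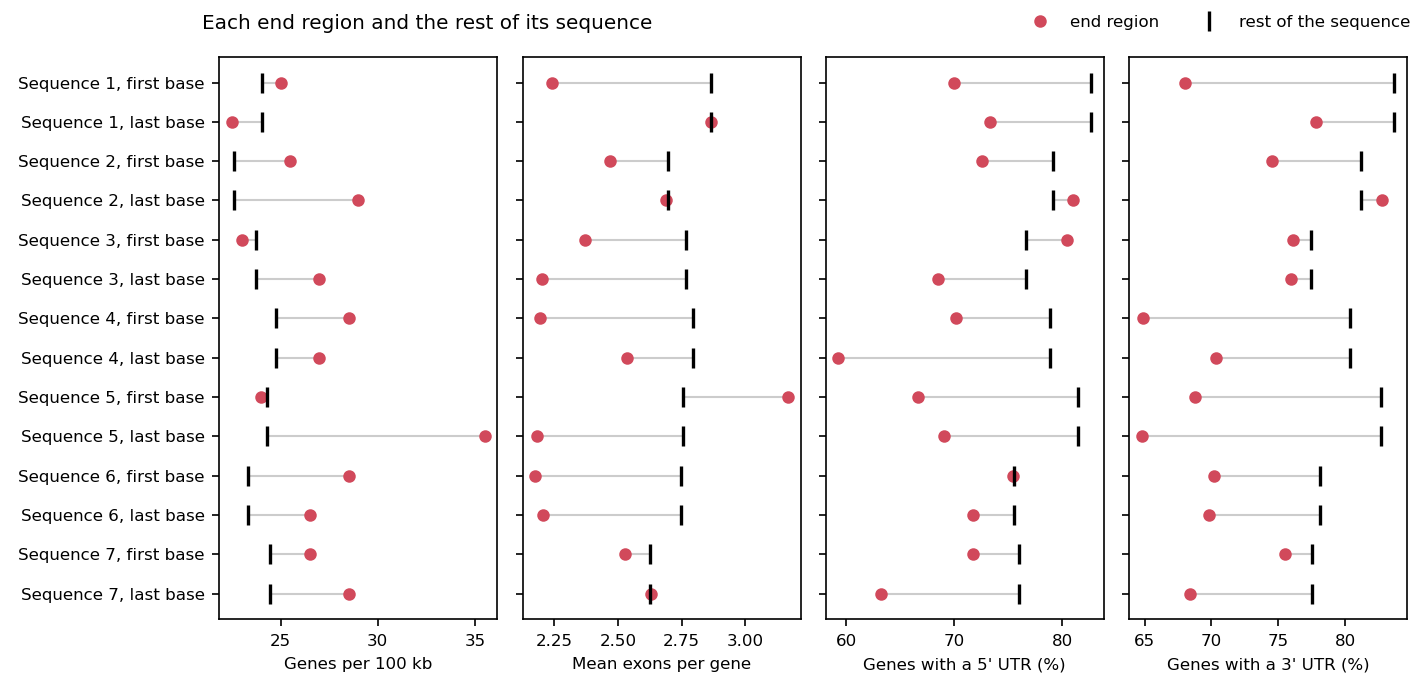
Genes per 100 kb, mean exons per gene and percent of genes with a 5′ or a 3′ UTR for each of the 14 end regions (red points) and for the rest of the same sequence (black ticks), with 1 row per end. Of the 14 ends, 11 are denser than their rest, 11 have fewer exons, 12 have a lower share of 5′ UTRs and 13 a lower share of 3′ UTRs.

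UTRs were annotated less often near the ends than in the whole rest on all 7 sequences. Of the 754 members, 534 (70.8%) had an annotated 5′ UTR, counted from 1 bp up. By sequence the shares were 71.6, 77.1, 74.0, 64.9, 68.1, 73.6 and 67.3% in the ends of sequences 1 to 7. In the rest they were 82.7, 79.1, 76.6, 78.9, 81.5, 75.5 and 76.0%. Sequences 2, 3 and 6 lay close to their rest, at -2.04, -2.62 and -1.88 percentage points, and sequences 1, 4, 5 and 7 lay further below it, at -11.1, -14.03, -13.4 and -8.71 percentage points. The means were 70.9 ± 4.34% and 78.6 ± 2.75%, a difference of -7.68 ± 5.43 percentage points (SD, exact permutation p = 0.0156, adjusted p = 0.0625).

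The share of genes with a 3′ UTR lay below the whole rest as well. It was annotated for 541 members, 71.9 ± 4.46% a sequence, and for 80.1 ± 2.54% of genes in the rest. The difference of -8.23 ± 5.51 percentage points was below 0 on 7 of 7 sequences (exact permutation p = 0.0156, adjusted p = 0.0625). It ranged from -1.40 on sequence 3 to -16.3 on sequence 5. Neither UTR was annotated for 180 members (23.9%), against 1466 genes of the rest (16.3%). Such genes begin and end at their start and stop codons in the annotation, so footprints aligned on their starts are aligned on a coding region and not on a transcript.

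The spread between ends was wide for both UTRs. The last base of sequence 4 had the lowest share of 5′ UTRs, 59.3%, with 15 of 54 genes lacking both UTRs. At the last base of sequence 2, 81.0% of genes had a 5′ UTR and 82.8% a 3′ UTR, above the 79.1% and 81.2% of the rest of that sequence. Where a 5′ UTR was annotated, its median length was 271 ± 57.9 bp in the ends and 321 ± 16.7 bp in the rest (means of sequence medians, SD, n = 7, no test). The difference of -50.2 ± 66.8 bp was within its spread, and 2 of 7 sequences lay above their rest. For 3′ UTRs the medians were 300.0 ± 46.2 bp and 352 ± 15.1 bp, a difference of -51.7 ± 48.1 bp with 1 of 7 sequences above (no test).

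Genes with several transcripts had a lower share near the ends than in the whole rest on 6 of 7 sequences. They numbered 55 of 754 members, 7.28 ± 1.72% a sequence, against 9.16 ± 1.19% in the rest. The difference of -1.88 ± 2.02 percentage points was below 0 on 6 of 7 sequences and above it on sequence 4 (exact permutation p = 0.0625, adjusted p = 0.15). No member had more than 3 transcripts, a number reached by 8 members. Of these, the lowest identifier was NCU05199 (sequence 4, minus strand, 5780841 to 5786092), with 6 exons and UTRs of 855 bp (5′) and 1205 bp (3′). In the rest the highest number was 5.

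**Figure D3:**
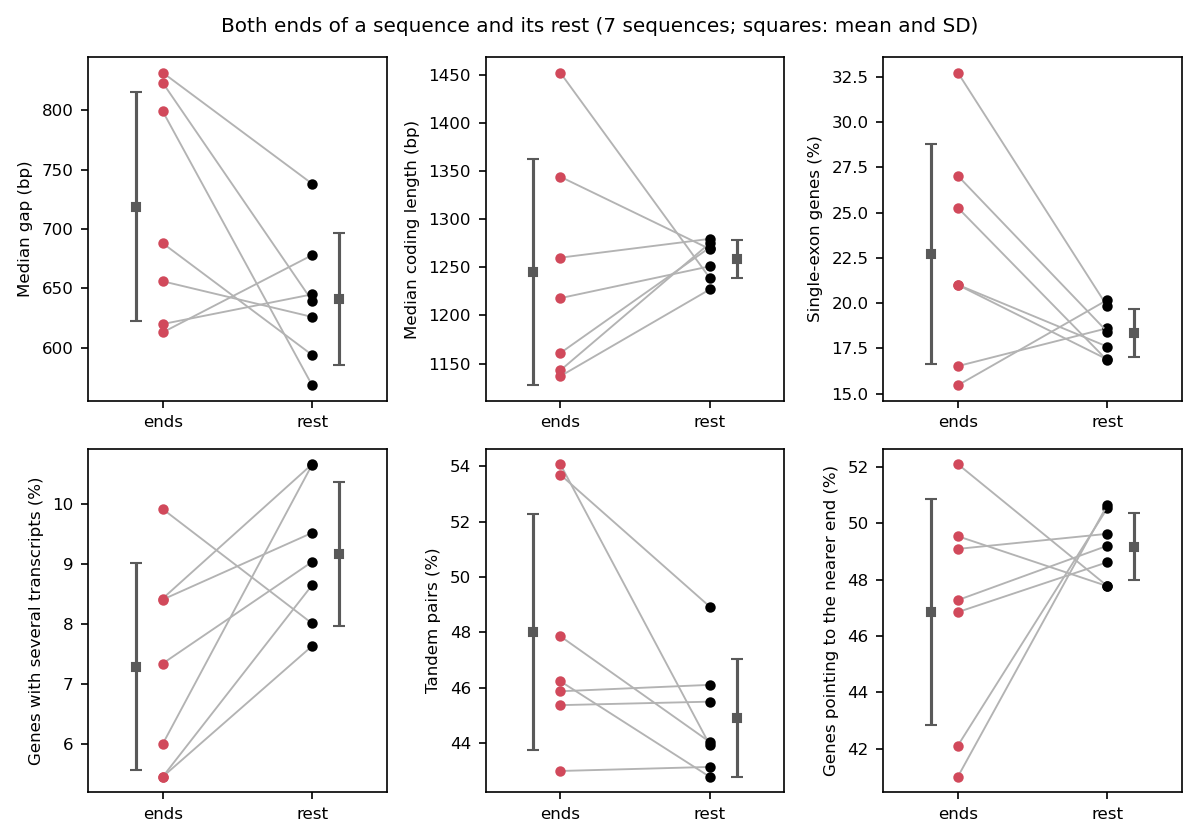
Median gap in bp, median coding length in bp, percent of single-exon genes, of genes with several transcripts, of tandem pairs and of genes pointing to the nearer end, for both ends of each sequence together (red, left) and its rest (black, right); lines join values of the same sequence, and squares with bars give mean and SD over 7 sequences. Every panel has sequences that lie above and sequences that lie below their rest, and coding length spreads from 1137 to 1452 bp in the ends and from 1227 to 1279.5 bp in the rest.

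Within 200 kb the genes were not uniform. UTR annotation was more complete in the outermost 100 kb than from 100 to 200 kb. The share of genes with a 5′ UTR in the 389 genes within 100 kb was 75.9, 78.5, 82.1, 67.9, 72.1, 78.2 and 73.3% on sequences 1 to 7. In the 365 genes from 100 to 200 kb it was 69.7, 75, 63.6, 61.8, 62.7, 69.1 and 60.0%. The outer zone exceeded the inner one on 7 of 7 sequences, by 9.42 ± 5.09 percentage points (SD). For 3′ UTRs the difference was 8.22 ± 6.15 percentage points, on 6 of 7 sequences. These zones were set after the profile by distance was seen, and the differences between them are given with no test.

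The low share of UTRs continued past the border of the end regions. From 200 to 600 kb, 63.7 ± 11.7% of genes had a 5′ UTR and 64.7 ± 11.1% a 3′ UTR, and beyond 600 kb 81.6 ± 2.59% and 83.3 ± 1.92% did. On sequence 3 the share of 5′ UTRs from 200 to 600 kb was 42.0%. Set against the genes at 200 to 600 kb alone, the ends exceeded them in 5′ UTRs by 7.24 ± 12.8 percentage points (4 of 7 sequences above 0, exact permutation p = 0.219, adjusted p = 0.438), the opposite sign to that against the whole rest. The median gap was 640 ± 216 bp within 100 kb and 858 ± 210 bp from 100 to 200 kb. It was 952 ± 170 bp from 200 to 600 kb and 585 ± 54.4 bp beyond. Between the zones within 200 kb the difference, outer minus inner, was -219 ± 400 bp, within its spread. Sequence 1 went the other way, with 1082 bp within 100 kb and 457 bp from 100 to 200 kb. Against 200 to 600 kb, the gap in the ends was shorter by a mean difference of -233 ± 113 bp (0 of 7 sequences above 0, exact permutation p = 0.0156, adjusted p = 0.188). What part the missing UTRs have in the longer gaps was not tested.

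The number of exons had a different profile. It was 2.45 ± 0.180 within 100 kb, 2.44 ± 0.237 from 100 to 200 kb, 2.58 ± 0.235 from 200 to 600 kb and 2.78 ± 0.0871 beyond, with no higher value at the outermost genes. Genes with several transcripts made up 8.75 ± 4.94, 6.42 ± 3.31, 5.19 ± 1.81 and 9.93 ± 1.43% in the same zones. Gene density was 27.8 ± 6.36, 26.1 ± 3.80, 24.4 ± 1.46 and 23.7 ± 0.817 genes per 100 kb. In the outermost 100 kb density spread from 14.5 on sequence 1 to 34 on sequence 5.

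**Figure D4:**
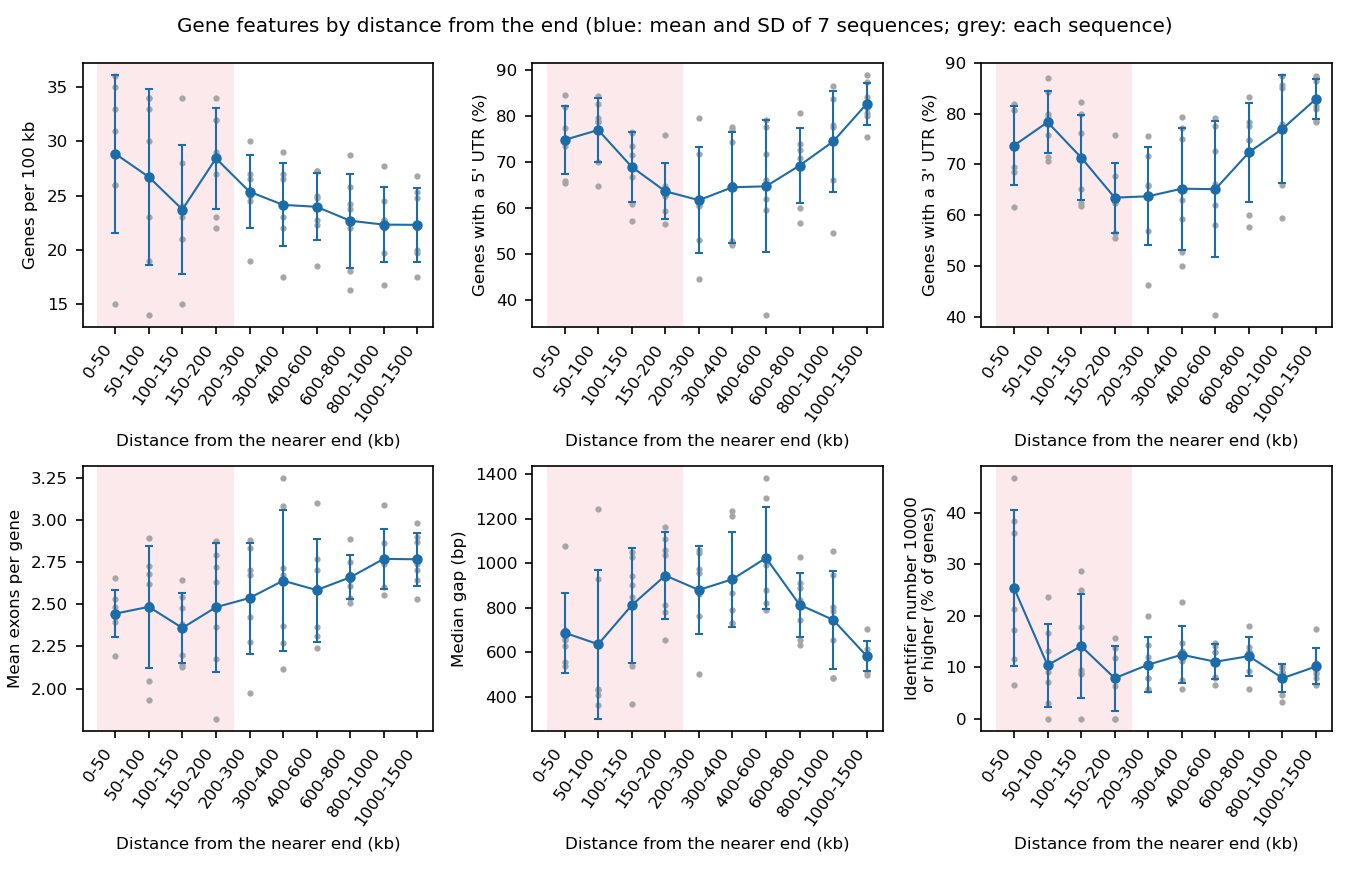
Gene density, percent of genes with a 5′ and with a 3′ UTR, mean exons, median gap in bp and percent of genes with an identifier number of 10000 or higher, by distance of the gene midpoint from the nearer end in kb; grey points are the 7 sequences, blue points and bars their mean and SD, and the shaded part is the end regions. The share of 5′ UTRs is 74.8% within 50 kb, lowest at 61.6% from 200 to 300 kb and 82.6% from 1000 to 1500 kb.

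The identifiers themselves differed near the ends. NCU identifiers end in a number, and numbers of 10000 or higher were carried by 110 of 754 members (14.6%) and 845 of 8976 other genes (9.41%). By sequence the shares were 14.6 ± 4.17% and 9.64 ± 1.53%, higher in the ends on 6 of 7 sequences (no test). Mean shares over sequences were 25.4 ± 15.1% within 50 kb and 10.3 ± 8.11% from 50 to 100 kb (SD). They were 14.1 ± 10.2% from 100 to 150 kb and 7.83 ± 6.29% from 150 to 200 kb. On average such numbers were most frequent in the outermost 50 kb, with 48 of 202 genes (23.8%). That held on sequences 1, 4 and 6, while on sequences 2, 3, 5 and 7 a zone further in had a higher share. In the outermost 50 kb, all 5 genes at the last base of sequence 1 and 8 of 15 at the last base of sequence 4 carried them. None of the 15 genes at the first base of sequence 3 and none of the 11 at the last base of sequence 7 did. Genes with such identifiers were shorter in both sets than genes with lower numbers. Median coding lengths were 942 against 1321.5 bp near the ends and 762 against 1308 bp in the rest. Near the ends 71.8% of genes with such identifiers had a 5′ UTR, and of the members with lower numbers 70.7% did. In the rest the shares were 69.2% of genes with such identifiers and 80.4% of those with lower numbers. No source used here says what the numbers stand for.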

How the data were processed

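The authors deposited a gene annotation of N. crassa as a GTF of 81022 records without a header; other values than positions, in bp from 1 along each sequence, are not in it (0 records with a score). NC12 gene calls are named in its source field, and strain OR74A in the name of the file, which is marked as fixed; no source used here says what was corrected. For the libraries, the submitters' processing notes name CASAVA and Bowtie2.

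A gene's span ran over all its transcripts. Exons, coding length (without the stop codon) and UTRs were taken from the transcript with most exonic bases. Consecutive genes by start formed pairs, and the 14 pairs with 1 gene in an end region and 1 outside were left out. The members, measures and tests were chosen with earlier results of these data known. Named are the outermost genes, the extremes of coding length, exons and transcripts, and the genes beside the longest gap; other ends and zones were picked out after their values were seen. The table of symbols used here matched 0 of the 9730 identifiers. No N. crassa genome was used, so no sequence is shown.

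Alternatives were the width of the ends, each set of ends, a nearer comparison zone, each sequence left out, and other definitions. Calculations used Python 3.11.15, NumPy 2.4.6, pandas 2.3.3 and matplotlib 3.10.9. Those of gene density, 5′ UTR annotation and exons per gene were tested on simulated data with known differences. An annotation has no read depth.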

Additional observations from a re-analysis of the deposited data

How the results depend on the processing

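No paired analysis was possible between replicate-numbered libraries, because no footprint values of theirs were analysed; the tests of the annotation pair the ends of a sequence with its own rest. Of 168 alternatives over the 12 results, 143 left the direction and the side of the 0.05 threshold as they were. Another 21 turned the direction and 4 brought a result past the threshold. The side of the threshold was close to fixed in advance: no main result had passed, so none was able to fall back. With sequence 1 left out, exons per gene had the smallest possible p, 0.0313 (exact permutation), and an adjusted p of 0.0938. The 143 therefore describe the direction and are no measure of stability at 0.05. Of the alternatives, 9, restricting the genes counted, were added after seeing the data.

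All 4 that passed came with ends of 300 kb (adjusted p = 0.0469 each, exact permutation): -11.4 percentage points for 5′ UTRs, -11.6 for 3′ UTRs, -2.64 for several transcripts and 152 bp for the gap. Each of the 4 had the smallest possible p there, which passes with 4 such results but not with the 3 of the main setting. With ends of 100 kb the UTR differences were -2.69 and -3.99 percentage points and the gap -13.0 bp. Against 200 to 600 kb, differences were 7.24 (5′ UTR), 7.17 (3′ UTR), 2.09 (several transcripts), 0.522 (single-exon genes), -0.340 (gaps over 10 kb), -2.92 (tandem) and -0.311 (plus strand) percentage points, -0.14 exons, -233 bp (gap) and 47.8 bp (coding length). The gap was -42.5 bp between coding spans and -271 bp as a mean. With first-base ends alone, coding length differed by 13.1 bp; with last-base ends alone, gaps over 10 kb differed by -0.534 and plus-strand genes by -2.47 percentage points.

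Leaving out each sequence gave -0.267 to 0.298 percentage points for gaps over 10 kb, -51.5 to 6 bp for coding length and -0.539 to 2.14 percentage points for plus-strand genes; these small differences changed sign. It gave 2.64 to 3.59 genes per 100 kb for density, -0.35 to -0.26 exons, and -8.65 to -6.62 and -9.36 to -6.88 percentage points for 5′ and 3′ UTRs. With 6 sequences p cannot go below 0.0313. Why these values moved was not tested. No depth limits an annotation; the few genes at an end limit its shares.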
